A study of Mus musculus with 20 samples.

Results

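Foxc2, Gata2, Gja1, Gja4, Itga9, Efnb2, Ephb4, Cldn11 and Fat4 were examined as genes of lymphatic valves and collecting vessels. They were found by gene symbol, and all 9 were present among the 24062 gene symbols counted in dermal LECs. The cells were sorted as podoplanin+CD31+ cells from ear skin of wild type C57BL/6 mice at postnatal day 56. The study's methods describe male C57BL/6N mice kept under 12 h of light and 12 h of dark. Cells were taken at ZT1, ZT7, ZT13 and ZT19, where zeitgeber time (ZT) is the number of hours after lights on, and each time point had 5 replicates, giving 20 libraries. Each replicate pooled 4 ears from 2 mice, so n counts pools and not animals. The sort did not separate capillary cells from cells of collecting vessels or valves, and in such bulk samples fewer cells of a type cannot be told apart from less RNA per cell.

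Lymph drains from blind-ended capillaries into collecting vessels, whose intraluminal valves keep it moving in one direction. Valve-forming LECs are marked by high levels of the transcription factors FOXC2, GATA2 and PROX1, and they respond to the oscillating flow in the vessel. They then couple through connexins, anchor to a fibronectin-rich matrix through integrin α9, sort by ephrin signaling and align by planar polarity through FAT4. CLDN11, a tight junction protein, is a marker of valve LECs. Most of these genes are also used by other cells, including blood endothelium, keratinocytes and fibroblasts.

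The labelled cell type was checked against its markers. Of 8 LEC markers, 7 passed the filter on low counts, among them Lyve1 with a normalized count of 16607 ± 6618 and Prox1 with 2703 ± 935 (SD, n = 20 libraries), and Ccl21a was listed with 0 counts in all 20 libraries. The 8 LEC markers summed to between 75446 and 99039 normalized counts at ZT1 and between 43613 and 95391 at ZT7. At ZT13 they summed to between 70531 and 108231, and at ZT19 to between 62953 and 83965.5. The 14 keratinocyte markers summed to between 40473 and 76639.5 normalized counts at ZT1 and between 66274 and 185085 at ZT7. Their sums lay between 13037 and 36026 at ZT13 and between 99262 and 186124 at ZT19, above the LEC sums in every ZT19 library. In edgeR's adjusted test 6 of the 14 differed among the time points. The 9 markers of smooth muscle and pericytes, cells that wrap vessels, summed to between 347 and 2055, with means from 18.4 for Cnn1 to 581 for Cspg4 and of 66.9 for Acta2, and 0 of the 9 differed among the time points in edgeR's test. Between 4475111 and 42002363 reads per library were counted on genes. Such reads made up between 12.7% and 39.7% in 14 libraries, taken over reads on genes plus reads outside genes, and between 53.7% and 81.6% in the other 6. The 6 libraries were replicate 2 of ZT7, replicate 5 of ZT13 and replicates 1, 2, 3 and 5 of ZT19. They held between 15112966 and 42002363 reads on genes, and the other 14 between 4475111 and 11854588. Between 12477 and 18243 genes were detected in the 6, and between 15485 and 21697 in the 14. The labels name no batch, so at ZT19 the share of reads on genes and the time point largely cannot be told apart. Levels in both sets of libraries are given for Foxc2, Gja1, Cldn11 and Fat4.

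Promoter windows from RefSeq (GRCm38.p6) were matched by symbol for 8 of the 9 genes, with 2 windows for Gata2, and no window was matched for Foxc2. Those of 4 genes, each the 250 bases before the transcription start, are shown because they belong to the pairs with the most negative correlations over the 20 libraries, Cldn11 with Gja1 (r = -0.67) and Gja4 with Efnb2 (r = -0.61), which are described with their tests further on. They are written 5′ to 3′ on the gene's strand, with CpG dinucleotides in capitals. They lie at chr3:31149670-31149919 (plus strand, Cldn11), chr10:56377050-56377299 (plus strand, Gja1), chr4:127314040-127314289 (minus strand, Gja4) and chr8:8661243-8661492 (minus strand, Efnb2).
Cldn11: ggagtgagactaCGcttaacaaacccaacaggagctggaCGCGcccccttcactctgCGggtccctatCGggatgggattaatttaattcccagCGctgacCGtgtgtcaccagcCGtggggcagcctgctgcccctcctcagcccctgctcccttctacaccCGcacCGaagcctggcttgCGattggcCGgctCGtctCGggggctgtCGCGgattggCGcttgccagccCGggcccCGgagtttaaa
Gja1: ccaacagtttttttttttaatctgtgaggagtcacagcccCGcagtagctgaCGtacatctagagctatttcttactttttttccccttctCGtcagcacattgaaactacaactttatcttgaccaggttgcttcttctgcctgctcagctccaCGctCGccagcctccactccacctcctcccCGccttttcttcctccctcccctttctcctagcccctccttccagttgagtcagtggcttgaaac
Gja4: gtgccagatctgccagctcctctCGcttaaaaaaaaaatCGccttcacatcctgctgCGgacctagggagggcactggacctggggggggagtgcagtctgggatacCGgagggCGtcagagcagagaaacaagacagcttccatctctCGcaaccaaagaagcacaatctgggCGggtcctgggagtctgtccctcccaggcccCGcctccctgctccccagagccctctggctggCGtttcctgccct
Efnb2: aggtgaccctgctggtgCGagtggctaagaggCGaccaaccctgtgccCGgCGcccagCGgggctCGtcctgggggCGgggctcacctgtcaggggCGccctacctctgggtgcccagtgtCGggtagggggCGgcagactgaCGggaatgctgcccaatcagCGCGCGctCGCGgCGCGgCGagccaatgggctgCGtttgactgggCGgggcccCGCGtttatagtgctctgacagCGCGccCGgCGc
The Cldn11 sequence held 19 CpG dinucleotides, that of Gja1 6, that of Gja4 9 and that of Efnb2 27, against a median of 6 over 32851 windows. The canonical E-box CACGTG, which is its own reverse complement, was found in 0 of the 9 member windows of 300 bases (250 before to 50 after the start) and in 7.15% of all windows. The E-box variant CACGTT was found on either strand in 4.68% of all windows and in 1 member window, that of Itga9, which lies inside the gene and not at its annotated 5′ end. The D-box forms TTATGTAA and TTATGCAA were found on either strand in 0 member windows, and in 0.938% and 0.743% of all windows. These matches describe letters in short windows.

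Whether the 9 genes differed with the time of day was asked of all 19209 genes that passed the filter, with edgeR's quasi-likelihood test and Benjamini-Hochberg adjustment, and all 9 passed that filter. None of the 9 genes had an adjusted p under 0.05 among the 4 time points, where 0.422% of all genes did, and none had a 24-h curve (0.0312% of all genes). None differed between ZT1 and ZT7 (0.00521%), ZT1 and ZT13 (0.0208%), ZT1 and ZT19 (0.0156%), ZT7 and ZT13 (0.0937%), ZT7 and ZT19 (0.0156%) or ZT13 and ZT19 (0.588%). At an unadjusted p of 0.05 or less, 2 of the 9 differed among the time points (Foxc2 and Efnb2), where 15.7% of all genes did, and 1 had a 24-h curve (Foxc2), against 9.23%. Of the 54 differences between 2 time points, 8 had an unadjusted p of 0.05 or less, against 12.2% of such differences over all genes. In all 54 the 5 libraries of one time point overlapped those of the other, and over all genes between 1.01% and 8.56% did not overlap, depending on the pair. With DESeq2, the tool of the study's methods, 0 of the 9 passed among the time points, where 3.12% of all genes did, and 0 for the curve, where 0.385% did. Unadjusted, 2 of the 9 and 18.6% of all genes passed DESeq2's test among the time points, and 3 of the 9 and 11.6% that for the curve. DESeq2 called Foxc2 and Fat4 lower at ZT19 than at ZT7 and than at ZT13, in comparisons where it called 10.8% and 9.24% of all genes.

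The highest mean lay at ZT13 for 4 genes (Gata2, Gja4, Itga9 and Fat4), at ZT1 for 2 (Efnb2 and Cldn11), at ZT19 for 2 (Gja1 and Ephb4) and at ZT7 for Foxc2. Over the 9 genes the median log2 fold change from ZT13 to ZT19 was -0.48, against -0.22 over all genes tested. From ZT1 to ZT19 the 2 medians were -0.32 and -0.39, and from ZT7 to ZT19 they were -0.24 and -0.20. With only the genes that had at least 10 counts in 10 libraries, the median over all genes from ZT13 to ZT19 was 0.016. Replicates of 1 time point differed by a coefficient of variation of 11.4% to 134%, and the counting error of a single value, which leaves out amplification, was 0.902% to 13.7%.

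**Figure D1:**
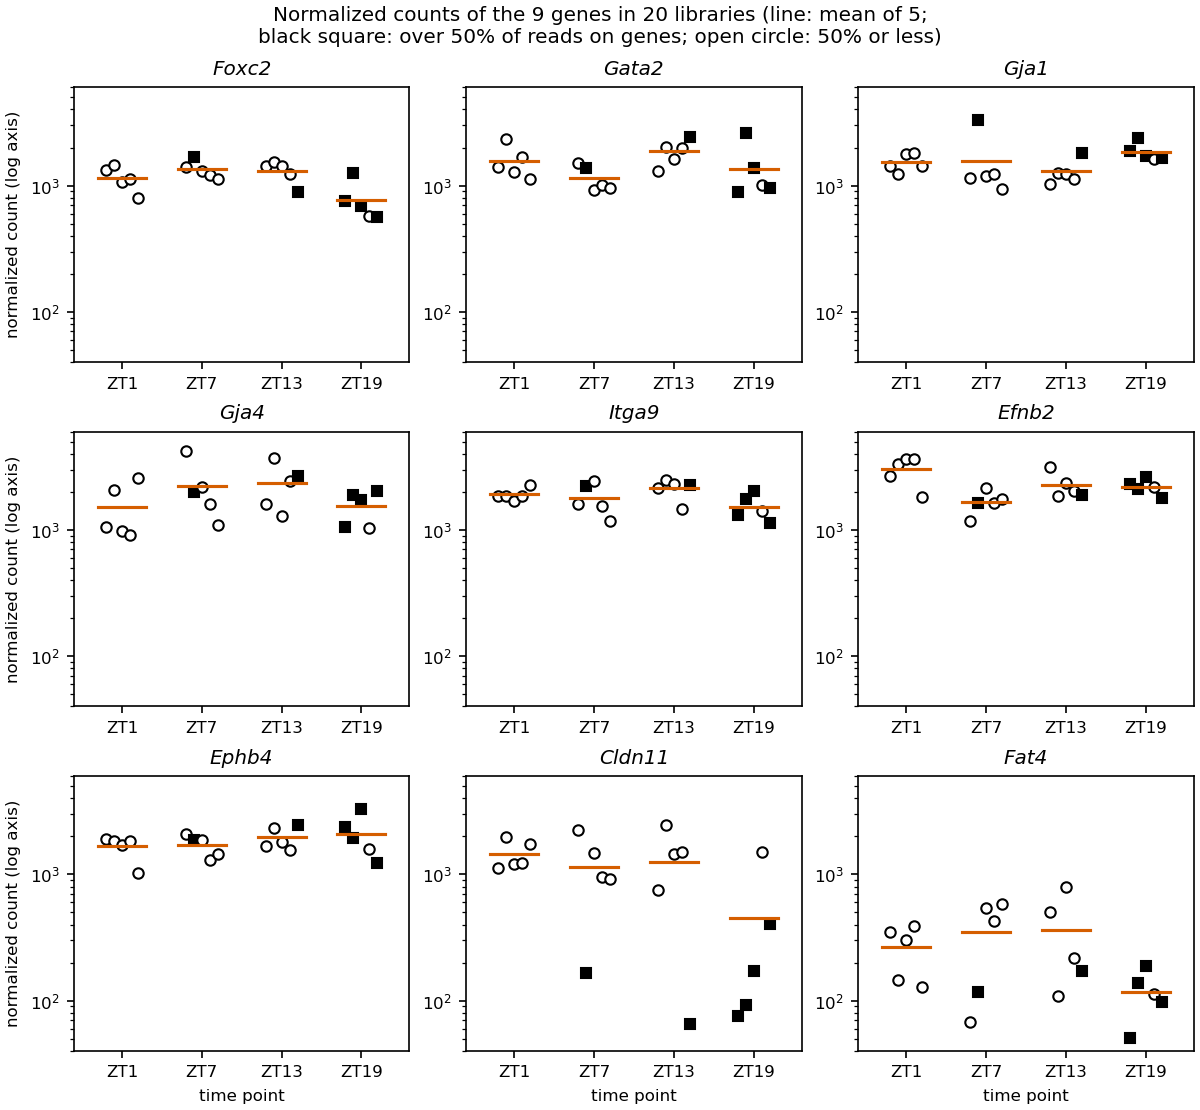
Normalized counts (log axis) of the 9 genes in each of 20 libraries by time point, with the mean of 5 as a line; black squares are the 6 libraries with over 50% of their reads on genes, open circles the other 14. Cldn11 has the widest range, from 65.1 to 2476, and all 6 black squares lie below its 14 open circles.

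Foxc2 and Gata2 encode transcription factors that act upstream in valve formation. Foxc2, a forkhead gene of 1 exon on chromosome 8 of GRCm38 (chr8:121116171-121118895, plus strand), had normalized counts of 1327, 1457, 1069, 1119 and 796 in the 5 libraries of ZT1. At ZT7 they were 1411, 1688, 1309, 1207 and 1136, and at ZT13 1418, 1527, 1438, 1239 and 891. At ZT19 they were 760.0, 1258, 687, 569 and 567. All libraries of ZT19 but 1 lay below all libraries of the other time points, and that 1, replicate 2, lay within their range. The 6 libraries of high share lay between 567 and 1688 (median 825) and the other 14 between 569 and 1527 (median 1274). The mean was 1350.2 ± 216 (SD, n = 5) at ZT7 and 768 ± 286 at ZT19, a log2 fold change of -0.82 (SE 0.29, unadjusted p = 0.00855, adjusted p = 0.131 in edgeR's quasi-likelihood test). DESeq2 gave -0.98 for the same difference (SE 0.28, adjusted p = 0.0117). From ZT13 to ZT19 edgeR gave -0.76 (SE 0.29, adjusted p = 0.142) and DESeq2 -0.90 (adjusted p = 0.0249). The 24-h curve fitted to Foxc2 peaked at 7.81 h with a log2 amplitude of 0.42 (unadjusted p = 0.0392, adjusted p = 0.536 in edgeR's test). Foxc2 and Itga9 stand on the list of adhesion genes that the study chose on these libraries, so their variation is not independent of that choice. In GENCODE M21, Foxc2 lies inside the gene Gm20388 on the same strand.

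Gata2, a zinc finger factor of the hematopoietic and lymphatic lineages (chr6:88193891-88207032, plus strand), had normalized counts of 1391, 2319, 1289, 1683 and 1133 at ZT1. They were 1495, 1364, 922, 1001 and 948 at ZT7, and 1298, 2002, 1626, 1977 and 2424 at ZT13. At ZT19 they were 884, 2583, 1367, 1003 and 956. Replicate 2 of ZT19 held the highest value of all 20 libraries, while its own group held the lowest. From 1146 ± 265 at ZT7 to 1865 ± 425 at ZT13 the log2 fold change was 0.70 (SE 0.32, unadjusted p = 0.0396, adjusted p = 0.9999 in edgeR's quasi-likelihood test). Of all genes, 1.16% were higher at ZT13 than at ZT7 at an unadjusted p of 0.05 or less. Keratinocyte markers moved the other way. Their mean level and Gata2 had r = -0.57 over the 20 libraries (permutation test, p = 0.00811, adjusted p = 0.0365 over 18 relations) and rho = -0.59 (adjusted p = 0.0380). The relation was weaker when values were centred on their time point (r = -0.27, adjusted p = 0.391) and when the 2 farthest libraries were left out (r = -0.38). With the keratinocyte level as a covariate the difference between ZT7 and ZT13 was 0.25 (adjusted p = 0.9999, edgeR). That level, a mean log2 CPM, lay between 7.39 and 8.60 at ZT7 and between 4.13 and 6.62 at ZT13. As these ranges do not overlap, the covariate and the time point cannot be told apart in this difference. The share of all genes related to the keratinocyte level was not counted.

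Gja1 and Gja4 encode connexin 43 and connexin 37, gap junction proteins found in different parts of the valve. Gja1 (chr10:56377330-56402513, plus strand) had normalized counts of 1431, 1234, 1763, 1826 and 1435 at ZT1. They were 1149, 3274, 1199, 1229 and 936 at ZT7, and 1031, 1262, 1238, 1136 and 1814 at ZT13. At ZT19 they were 1889.8, 2387, 1722, 1615 and 1649.7. The highest value of ZT7 was that of replicate 2 and the highest of ZT13 that of replicate 5, both libraries with over 50% of their reads on genes. From 1296 ± 303 at ZT13 to 1853 ± 317 at ZT19 the log2 fold change was 0.51 (SE 0.32, adjusted p = 0.386 in edgeR's quasi-likelihood test). Once that share entered the fit as a covariate it was 0.16 (adjusted p = 0.855). Over the 11 settings tried as alternatives, fits without 1 library aside, it ranged from 0.16 to 0.80.

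Gja4 (chr4:127311421-127314039, minus strand) had normalized counts of 1058, 2057, 973, 905 and 2593 at ZT1. They were 4247, 2002, 2184, 1616 and 1085 at ZT7, and 1604, 3709, 1279, 2426 and 2657 at ZT13. At ZT19 they were 1061, 1888, 1734, 1034 and 2019. A library with 2593 or more was found at every time point but ZT19, where the highest had 2019. From 1517 ± 763 at ZT1 to 2335 ± 955 at ZT13 the log2 fold change was 0.62 (SE 0.39, adjusted p = 0.9998, edgeR). With each library left out in turn it ranged from 0.39, without replicate 2 of ZT13, to 0.99, without replicate 3 of ZT13. With the keratinocyte level as a covariate this difference was -0.038 (adjusted p = 0.995). Arterial endothelium also makes connexin 37. The 9 markers of blood endothelium summed to a median of 6339.5 at ZT1 and 6048 at ZT7, of 11722 at ZT13 and of 6661 at ZT19, and 0 of the 9 differed among the time points in edgeR's test. Unadjusted, 4 of the 9 were lower at ZT19 than at ZT13, where 11.9% of all genes were. The list was not one of arterial markers, and the part of blood endothelium in the Gja4 values was not tested.

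Itga9 encodes integrin α9, which pairs with the β1 chain (Itgb1) and binds the EIIIA form of fibronectin (Fn1) in the valve matrix. It spans 28 exons at chr9:118606690-118901003 (plus strand). Its normalized counts were 1870.3, 1860.3, 1692, 1850.3 and 2279 at ZT1, and 1611, 2235, 2444, 1554 and 1184 at ZT7. They were 2133, 2486, 2289, 1476 and 2270.4 at ZT13, and 1318, 1771, 2019.6, 1409.9 and 1140.2 at ZT19. The 5 libraries of ZT1 were the closest together of all 36 groups of libraries of the 9 genes, with a coefficient of variation of 11.4%. From 2131 ± 387 at ZT13 to 1532 ± 357 at ZT19 the log2 fold change was -0.48 (SE 0.28, adjusted p = 0.357, edgeR). Itgb1 had a mean of 4171 ± 887 at ZT1 and 3604 ± 1104 at ZT7, with 4097 ± 768 at ZT13 and 3843 ± 767 at ZT19 (adjusted p = 0.963 among the time points, edgeR). Fn1 had 3514 ± 1403.5, 2527 ± 361, 3295 ± 1115 and 2315 ± 1349 (adjusted p = 0.648). The antisense gene Gm2415 and a pseudogene overlap Itga9, and the counting is not stated to use strand.

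Efnb2 and Ephb4 encode the ligand ephrin-B2 and its receptor EPHB4, a pair in which both molecules signal into the cell that carries them. Efnb2 (chr8:8617434-8661242, minus strand) had normalized counts of 2687, 3343, 3668, 3643 and 1823 at ZT1. They were 1174, 1634, 2137, 1629 and 1748 at ZT7, and 3144, 1840.0, 2365, 2021 and 1897 at ZT13. At ZT19 they were 2297, 2119.5, 2605, 2198 and 1805. All libraries of ZT1 but replicate 5 exceeded every library of ZT7. The mean was 3033 ± 783 at ZT1 and 1664 ± 344 at ZT7, a log2 fold change of -0.86 (SE 0.29, unadjusted p = 0.00627, adjusted p = 0.775 in edgeR's quasi-likelihood test). The 10 fibroblast markers summed to between 6972 and 19986 at ZT1 (median 12661) and between 1434 and 5587 at ZT7 (median 3053), with a median log2 fold change of -1.41 and 1 of the 10 lower by edgeR's adjusted test (5 unadjusted). Their part in the Efnb2 values was not tested. Of all genes, 4.19% were lower at ZT7 than at ZT1 at an unadjusted p of 0.05 or less. DESeq2 gave -0.71 (adjusted p = 0.419). The difference was between -1.01 and -0.71 in the 20 fits that each left out 1 library.

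Ephb4 (chr5:137350109-137378669, plus strand) had normalized counts of 1913, 1850.2, 1696, 1822 and 1028 at ZT1. They were 2082, 1863, 1871, 1308 and 1458 at ZT7, and 1682, 2340.1, 1816, 1546 and 2449 at ZT13. At ZT19 they were 2369, 1947, 3303, 1595 and 1228. Its largest difference between 2 time points was 0.33 on the log2 scale, from 1662 ± 363 at ZT1 to 2088 ± 799.8 at ZT19 (SE 0.30, adjusted p = 0.538, edgeR). With each library left out in turn it ranged from 0.095, without replicate 3 of ZT19, to 0.57, without replicate 3 of ZT13. Replicate 3 of ZT13 belongs to neither of these time points, so leaving it out acts only through the scaling and fit shared by all libraries. Over the 20 libraries the levels of Efnb2 and Ephb4 had r = 0.16 and rho = 0.18 (permutation test, adjusted p = 0.770 and 0.607 over 36 pairs). The annotated span of Zan, on the opposite strand, overlaps Ephb4.

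Cldn11 encodes claudin 11, a tight junction protein also known from the myelin of the brain and from testis, and lies at chr3:31149920-31164324 (plus strand). Its normalized counts were 1116, 1961, 1209, 1227 and 1752 at ZT1, and 2233, 166, 1478, 949 and 917 at ZT7. They were 748, 2476, 1459.5, 1509.9 and 65.1 at ZT13, and 75.1, 91.7, 170.1, 1500.3 and 406 at ZT19. The low values were those of the 6 libraries with over 50% of their reads on genes, which lay between 65.1 and 406 (median 129), below all 14 others, which lay between 748 and 2476 (median 1469). Of all genes tested, 1.18% were likewise lower in all 6 libraries than in all 14, and no other of the 9 genes was. In reads, the 6 libraries held between 263 and 733 counts on Cldn11 and the 14 between 496 and 2332. From 1453 ± 378 at ZT1 to 449 ± 603 at ZT19 the log2 fold change was -1.70 (SE 0.72, unadjusted p = 0.0262, adjusted p = 0.169 in edgeR's quasi-likelihood test), and 14.4% of all genes were lower at ZT19 at that unadjusted threshold. The only ZT19 library with 50% or less of its reads on genes, replicate 4, had 1500.3, within the range of ZT1. Without replicate 4 of ZT19 the difference was -2.98 (adjusted p = 0.0264, with 902 of 19805 genes called), with the share as a covariate it was -0.37 (adjusted p = 0.928), and without the 6 libraries it was 0.039 (adjusted p = 0.991). From ZT13 to ZT19 it was -1.49 (SE 0.72, adjusted p = 0.256, edgeR), and -1.83 (adjusted p = 0.0407) without replicate 2 of ZT7 and replicate 5 of ZT13, where 10.6% of all genes were called. Across the 14 libraries Cldn11 was higher where the share was higher (r = 0.69, permutation test, p = 0.00709, adjusted p = 0.0638 over 18 relations, rho = 0.60, adjusted p = 0.131), and across the 6 it had r = -0.64 (exact permutation test, p = 0.176, adjusted p = 0.529). Neither passed the adjustment, and what sets the 6 libraries apart was not tested.

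Fat4, an atypical cadherin that acts with Dchs1 in planar polarity, lies at chr3:38886940-39011985 (plus strand) and was the lowest of the 9 genes. Its normalized counts were 352, 146, 302, 391 and 127 at ZT1, and 67.7, 117, 543, 428 and 583 at ZT7. They were 505, 109, 794, 217 and 171 at ZT13, and 50.9, 138, 189, 114 and 96.8 at ZT19. Libraries of 391 or more were found at each of the other 3 time points, while no library of ZT19 passed 189. The mean was 359 ± 286 at ZT13 and 118 ± 51.0 at ZT19, a log2 fold change of -1.61 (SE 0.59, unadjusted p = 0.0110, adjusted p = 0.131, edgeR), and from ZT7 it was -1.57 (SE 0.59, adjusted p = 0.149). The difference between ZT13 and ZT19 was between -1.84 and -1.02 in the 20 fits that each left out 1 library. Without replicate 3 of ZT13 it was -1.02 (adjusted p = 0.392). With the keratinocyte level as a covariate it was -2.89 (adjusted p = 0.0565). That level lay between 4.13 and 6.62 at ZT13 and between 7.31 and 8.58 at ZT19 (mean log2 CPM). The covariate and the time point therefore cannot be told apart in this difference. DESeq2 gave -1.85 (adjusted p = 0.0372) and -1.89 (adjusted p = 0.0289) for the differences from ZT13 and from ZT7. Without replicate 2 of ZT7 and replicate 5 of ZT13 edgeR gave -1.74 from ZT7 to ZT19 (adjusted p = 0.0482), where 12.1% of all genes were called. Once the share of reads on genes entered the fit as a covariate, the difference between ZT13 and ZT19 was -0.70 (adjusted p = 0.593, edgeR). At an unadjusted p of 0.05 or less, 3 of the 9 genes (Foxc2, Cldn11 and Fat4) were lower at ZT19 than at ZT13, where 11.9% of all genes were, and 2 (Foxc2 and Fat4) were lower than at ZT7, where 13% were. Dchs1 had a mean of 459.7 ± 130.3 at ZT1 and 354 ± 124 at ZT7, with 375 ± 372 at ZT13 and 182 ± 72.5 at ZT19 (adjusted p = 0.466 among the time points, edgeR). In the annotation 2 antisense genes overlap Fat4.

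The relations with the share of reads on genes have no background here, since those of all genes were not counted. Fat4 was lower where more reads fell on genes. Over the 20 libraries r was -0.72 with the share of reads on genes, taken as log2 odds (permutation test, p = 0.00028, adjusted p = 0.00252 over 18 relations) and rho was -0.78 (adjusted p = 0.0018). The relation was present with values centred on their time point (r = -0.65, adjusted p = 0.00882), when the 2 farthest libraries were left out (r = -0.72) and within the 14 libraries of low share (r = -0.81, permutation test, adjusted p = 0.0063). In the 6 libraries r was -0.53 (exact permutation test, p = 0.290). Among the 14, replicate 1 of ZT7 and replicate 2 of ZT13 had the lowest Fat4 values (67.7 and 109). They also had the fewest genes detected (16147 and 15485), and the part of that number in the Fat4 values was not tested. Gja1 was higher where the share was higher (r = 0.69, permutation test, adjusted p = 0.0042, and rho = 0.70, adjusted p = 0.00684). Centred on the time points r was 0.70 (adjusted p = 0.00882). The relation lay between the 2 sets of libraries and did not pass within them, with r = 0.34 in the 14 libraries (permutation test, adjusted p = 0.596) and r = -0.21 in the 6 (exact permutation test, adjusted p = 0.963). The 6 libraries held between 50.9 and 189 normalized counts of Fat4 (median 128) and the 14 between 67.7 and 794 (median 327). For Gja1, the 6 libraries held between 1649.7 and 3274 normalized counts and the 14 between 936 and 1826. Ephb4 had a rho of 0.58 with the share (permutation test, adjusted p = 0.0380) and an r of 0.49 (adjusted p = 0.107). Its r was 0.42 centred on the time points (adjusted p = 0.170) and 0.34 when the 2 farthest libraries were left out, and within the sets rho was 0.59 in the 14 libraries (permutation test, adjusted p = 0.131) and -0.086 in the 6 (exact permutation test, adjusted p = 0.974).

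**Figure D2:**
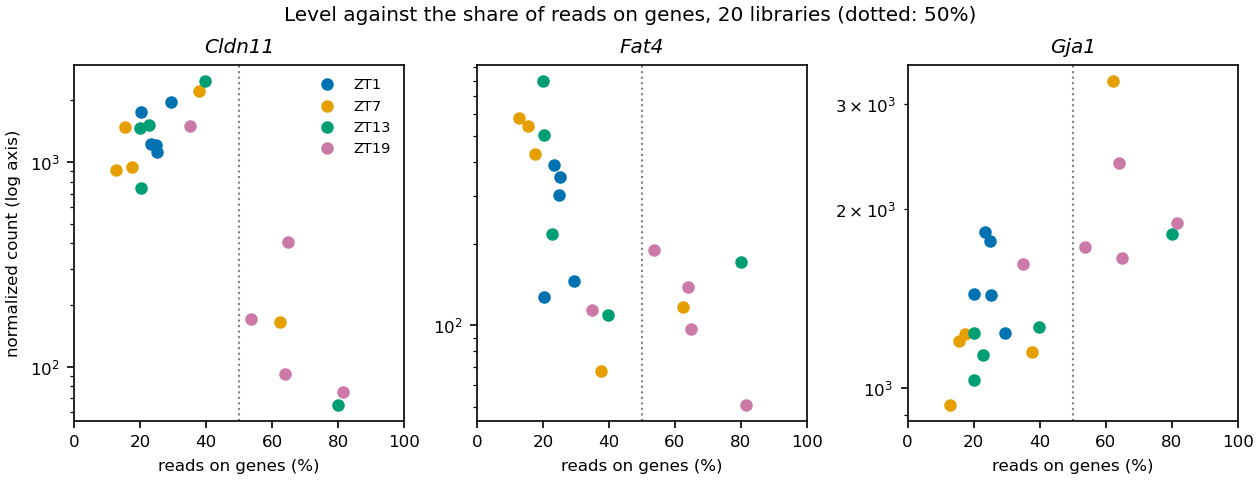
Normalized counts (log axis) of Cldn11, Fat4 and Gja1 against the percentage of reads on genes in 20 libraries, coloured by time point, with a dotted line at 50%. Cldn11 lies between 748 and 2476 left of the line and between 65.1 and 406 right of it, Fat4 is lower at higher shares on the left, and all 6 values of Gja1 right of the line exceed 1649.

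Per kb of exon, which allows genes to be compared, the mean normalized count over the 20 libraries was highest for Gja4 (1131 ± 536, SD, n = 20 libraries). Cldn11 followed with 575 ± 397, Foxc2 with 419.7 ± 121, Ephb4 with 401 ± 108, Efnb2 with 334 ± 101, Gata2 with 275 ± 97.8, Itga9 with 239.8 ± 54.2, Gja1 with 152 ± 52.6 and Fat4 with 15.9 ± 12.1. Neighbours in this order from Cldn11 to Itga9 were closer to each other than the larger of their SDs, while Gja4 and Cldn11, Itga9 and Gja1, and Gja1 and Fat4 were farther apart. The place of Cldn11 did not hold at ZT19, where its mean per kb was 239.9 ± 322 (SD, n = 5), against 450.1 ± 172 for Ephb4, 322 ± 42.3 for Efnb2, 282 ± 105 for Foxc2 and 252 ± 131 for Gata2. Among the tested genes that had a length, Gja4 stood at the 97.8th percentile and Fat4 at the 37.0th.

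Whether the genes varied together from pool to pool was asked of the 36 pairs. Gja1 and Cldn11 went in opposite directions over the 20 libraries, with r = -0.67 (permutation test, p = 0.00129, adjusted p = 0.0464) and rho = -0.53 (adjusted p = 0.267), and this was the only pair to pass. It rests on the 6 libraries apart. Within the other 14 r was 0.14 (permutation test, adjusted p = 0.778). Gja4 and Efnb2 had r = -0.61 (permutation test, adjusted p = 0.0761) and rho = -0.58 (adjusted p = 0.267), with r = -0.62 in the 14 libraries (adjusted p = 0.221) and r = -0.47 without the 2 farthest. Efnb2 and its receptor gene, and Foxc2 and Gata2 (r = 0.42, permutation test, adjusted p = 0.322), did not pass. Centred on the time points, 4 pairs passed with an adjusted p of 0.0209 each (permutation test), namely Gja4 and Fat4 (r = -0.70), Gja1 and Cldn11 (r = -0.67), Gja4 and Efnb2 (r = -0.64) and Efnb2 and Fat4 (r = 0.64). Uncentred, Gja4 and Fat4 had r = -0.41 (adjusted p = 0.322), with -0.60 in the 14 libraries and 0.77 in the 6, and Efnb2 and Fat4 had r = 0.37 (adjusted p = 0.359), with 0.36 in the 14 and 0.052 in the 6. In the 14 libraries alone, 0 of 36 pairs passed. How many pairs over all genes would pass these tests was not counted, so these counts have no background.

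Across the 8459 genes with a mean log2 CPM of at least 4, the gene most like each of the 9 was found by Pearson's r over the 20 libraries, as a description, since all values share depth and library. For Cldn11 these were Maf (r = 0.95), a transcription factor, and Ctdsp1 (r = 0.95). Maf lay between 381 and 1625 normalized counts in the 6 libraries of high share and between 2371 and 4503 in the other 14, and its r with Cldn11 was 0.69 within each set. For Itga9 the most alike were Ugcg, which makes glucosylceramide (r = 0.89, and 0.87 in the 14 libraries), and Tgfbr2, a TGF-β receptor (r = 0.82). For Gata2 they were Nfatc1, a further transcription factor of valve LECs (r = 0.78, 0.68 in the 14 and 0.94 in the 6), and Slk (r = 0.75). For Foxc2 they were Fgd6 (r = 0.85) and Camkk2 (r = 0.78), for Gja1 Pfkp and Hnrnph2 (r = 0.81 each, but 0.23 and 0.26 within the 6 libraries), and for Gja4 Ddah2 (r = 0.83) and Bst2 (r = 0.81). Efnb2 was most like Asxl1 (r = 0.82) and Rapgef1 (r = 0.79), Ephb4 most like Wipi2 (r = 0.85) and Prdm4 (r = 0.83), and Fat4 most like Mroh2a (r = 0.87) and Tbkbp1 (r = 0.86).

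**Figure D3:**
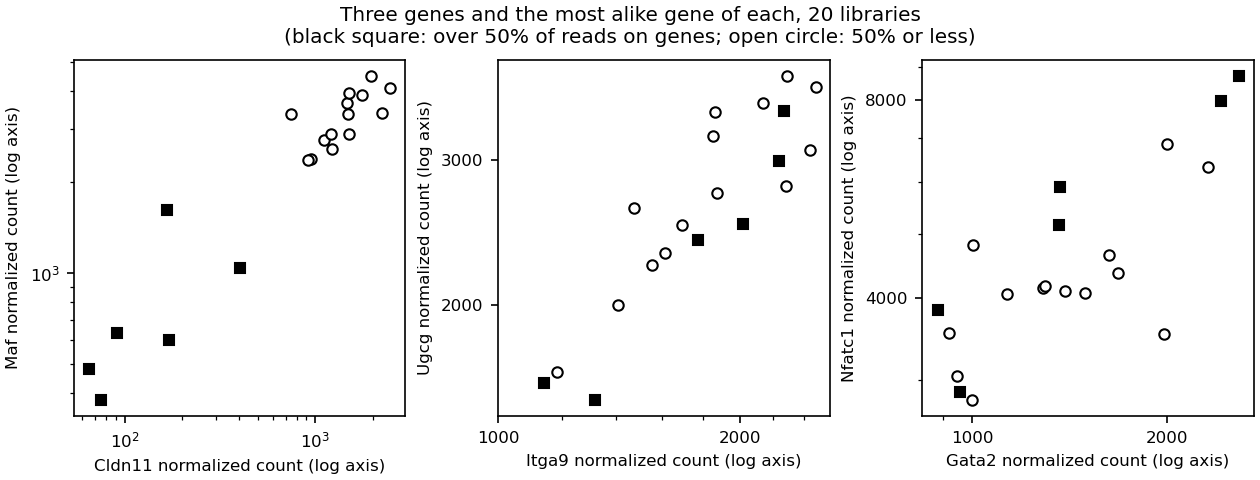
Normalized counts (log axes) of Cldn11 against Maf, Itga9 against Ugcg and Gata2 against Nfatc1 in 20 libraries, with the 6 libraries of over 50% of reads on genes as black squares. In the first panel the 6 black squares form a set of their own (Maf at most 1625), and in the others they mix with the 14 open circles.

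A list of 70 further genes of valve and collector biology, all of which passed the filter, gave the surroundings of the 9. None of the 70 had an adjusted p under 0.05 among the time points, for the 24-h curve or between any 2 time points in edgeR's test, while 13 of them reached the unadjusted threshold in the comparison of time points and 7 for the curve, near the shares of all genes given above (15.7% and 9.23%). The smallest p belonged to Efnb1, the ephrin-B1 ligand that is related to Efnb2. It had 312 ± 99.0 normalized counts at ZT1 and 264 ± 72.1 at ZT7, with 231 ± 122 at ZT13 and 701 ± 334 at ZT19 (unadjusted p = 0.00155, adjusted p = 0.116 among the time points, edgeR), and the difference from ZT13 to ZT19 was 1.60 on the log2 scale (SE 0.42, adjusted p = 0.0702). Klf2, the shear-responsive factor, had its highest mean at ZT13 (6121, against 2692 at ZT7, a log2 fold change of 1.18 ± 0.40 SE, adjusted p = 0.815). Calcrl, the adrenomedullin receptor, had a mean of 1478 at ZT13 and 689.7 at ZT19 (log2 fold change -1.10, SE 0.33, adjusted p = 0.0911). Plxnd1, a semaphorin receptor, had 652 ± 434 at ZT7 and 150.1 ± 112 at ZT19 (adjusted p = 0.107, edgeR). Bmpr2, a BMP receptor, had 1581 ± 541 at ZT1 and 577 ± 349 at ZT19 (adjusted p = 0.0930, edgeR). At the same 2 time points the junction cadherin gene Cdh5 had 3981 ± 1033 and 1536 ± 1244 (adjusted p = 0.100). The semaphorin coreceptor gene Nrp2 had 3721 ± 2017 and 1607 ± 911 there (adjusted p = 0.104). Unadjusted, 13% of all genes were lower at ZT19 than at ZT7, and 14.4% lower than at ZT1. Vegfc, the growth factor of lymphatics, had means of 11.02 at ZT1, 14.5 at ZT7 and 20.2 at ZT13, with 0 counts in 2 of 5 libraries of ZT7, in 3 of ZT13 and in all 5 of ZT19, where 3 counts would be 8.33e-06% to 2.78e-05% of the reads on genes.

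Among direct partners of the 9 genes, Prox1 had a mean of 3524 ± 834 at ZT1 and 2238 ± 624 at ZT7, with 2962 ± 894 at ZT13 and 2087 ± 774 at ZT19 (adjusted p = 0.400 among the time points, edgeR). Nfatc1 had 4595 ± 982, 3717 ± 944, 5434 ± 1895 and 5224 ± 2252 (adjusted p = 0.728). Tjp1, which encodes the junction scaffold ZO-1, had 1783 ± 613, 1329 ± 183.5, 1614 ± 467 and 951 ± 298 (adjusted p = 0.289). Gja5, the third connexin of the group, was near the limit of detection, with means of 21.2, 50.3, 28.0 and 2.58. The ephrin-B receptor gene Ephb2 had means of 11.4 to 62.3. Ephb3 had medians of 69.3 to 169, and its mean of 383 at ZT1 rests on 1 library with 1565.

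**Figure D4:**
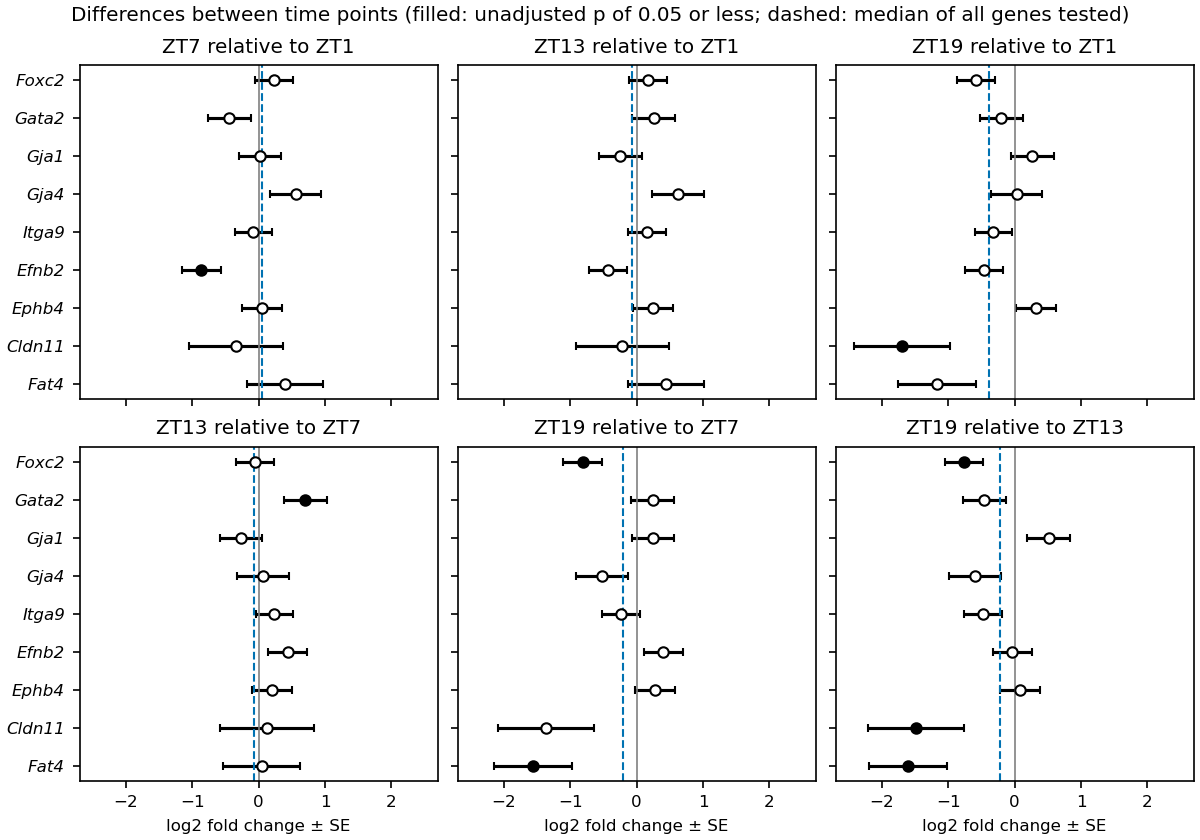
Log2 fold changes of the 9 genes between each 2 time points with the SE from edgeR's fit, filled where the unadjusted p was 0.05 or less, with the median of all 19209 genes as a dashed line. Foxc2, Cldn11 and Fat4 lie left of the dashed line in all 3 panels of ZT19, with values from -0.59 to -1.70, and none of the 54 differences passed the adjusted threshold.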

How the data were processed

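RNA of sorted dermal LECs was sequenced in 20 libraries as single-end reads of 100 nucleotides after full-length cDNA amplification, without molecular identifiers. Reads were mapped by the authors with STAR (genome mm10), who deposited raw counts per gene symbol made with HTSeq-count (Galaxy version 1.0.0), and they tested with DESeq2 (Galaxy version 2.11.40.6). Neither the annotation nor the strand setting of the counting is given in the sources used here. Reads that were not assigned to 1 gene are listed apart and were left out of library sizes, where ambiguous reads came to between 1.95% and 6.38% of the reads on genes.

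Samples were grouped by the labels of the libraries. The tests were run in edgeR 4.0.16 under R 4.3.3, with TMM factors, its default filter by time point, the quasi-likelihood test and Benjamini-Hochberg adjustment over 19209 genes at a threshold of 0.05. They were fitted over all 20 libraries, among the 4 time points, for a cosine and sine with a period of 24 h, and between pairs of time points. SEs were taken from the F statistic. For a normalized count, the count was divided by the library's effective size, which was first scaled to a geometric mean of 1 over the libraries, and log2 values used a pseudocount of 1. Correlations used permutation tests with 100000 resamples, or exact enumeration for 6 libraries. Lengths and positions came from GENCODE M21 (GRCm38, the build that mm10 denotes), with a length for 23700 of 24062 symbols, 950 of them through an older symbol. The fits were tested on simulated data. DESeq2 1.42.0 and other settings were tried as alternatives. All 9 genes were named, the list of 70 by its 8 smallest p-values and 10 direct partners, and for each gene the 2 most alike. The genes and lists were chosen with earlier results of these data known, and the split at 50% of reads on genes was chosen after the counts were seen. Depth sets the counting error, and any further part of depth in the values was not tested.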

Additional observations from a re-analysis of the deposited data

Results flagged for a closer look

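Of the 36 groups of 5 values, 2 held a single value well apart from the rest, and chance flags about 1 in 20 groups. For Gja1 at ZT7, replicate 2 was high at 3274 normalized counts, and its gap to the nearest library was 0.783 of the range of log2 values. For Ephb4 at ZT1, replicate 5 was low at 1028, with a gap of 0.807. Replicate 2 of ZT7 had 62.3% of its reads on genes, against 12.7% to 37.7% in the other libraries of that time point, and replicate 5 of ZT1 had 20.2%, the lowest of its time point. The part of these shares in the values was not tested.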

How the results depend on the processing

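The count of members called stayed at 0 among the 4 time points and for the 24-h curve under every alternative, each library left out included. DESeq2 called 2 members between ZT7 and ZT19 and 2 between ZT13 and ZT19 (Foxc2 and Fat4 in both). Without replicate 2 of ZT7 and replicate 5 of ZT13, 1 was called between ZT7 and ZT19 (Fat4, adjusted p = 0.0482, edgeR) and 1 between ZT13 and ZT19 (Cldn11, adjusted p = 0.0407), where 12.1% and 10.6% of all genes were called. Leaving out each library in turn gave from 0 to 1 members between ZT1 and ZT19, and the 1 was Cldn11 without replicate 4 of ZT19, where 902 of 19805 genes were called. Of the leading differences, that of Gja4 turned to -0.038 with the keratinocyte level as a covariate, and without the 6 libraries of over 50% of reads on genes, chosen after seeing the data and leaving 1 library at ZT19 that is assumed to vary like the other groups, that of Ephb4 turned to -0.065 and that of Cldn11 to 0.039. The cause was not tested. Relations between members numbered 4 with values centred on their time point and 0 in the 14 libraries, against 1, with no share over all genes counted beside them. With the replicate block, 0 members were called in each of the 8 tests and 31 genes were called among the time points, against 81 without it. Same-numbered replicates deviated together by a mean correlation between -0.04 and 0.17, and between ZT1 and ZT13 the single correlations ran from 0.079 to 0.325. Replicates of different numbers were not compared in this way, so the values cannot tell whether the numbers pair the samples. Other scalings moved the median of all genes between ZT13 and ZT19 from -0.22 to -0.39 and -0.45 (0.016 with at least 10 counts in 10 libraries), with the members in the same direction for their leading differences.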
